A study of Saccharomyces cerevisiae with 6 samples.

Results

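The small-subunit ribosomal protein genes of budding yeast were examined in the nab2-1 mutant and in the wild type. Members were all genes whose symbol is RPS followed by a digit and that had a probe set assigned to 1 gene, with the brightest probe set taken for each. Of the 56 such genes in the reference gene table, 52 were measured, among 5449 genes tested in all. The others were not analysed here. Transcript levels were compared on Affymetrix yeast arrays, with 3 arrays of nab2-1 and 3 of the wild type and 1 array per sample. Both strains are W303-1A, grown exponentially in YPD, a rich medium, and total RNA was the starting material. The nab2-1 strain has its chromosomal NAB2 gene deleted with HIS3 and carries nab2-1 on a plasmid with a centromere and the LEU2 marker. The labels give no plasmid for the wild type, so marker and plasmid differ between the groups together with the allele. Whether the 3 samples per strain are separate cultures is also not stated, so the spread that enters each p-value is that between these arrays and may be technical. In RNA of whole cultures, less RNA per cell and a different make-up of the culture cannot be told apart.

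The small ribosomal subunit reads the mRNA, and its proteins bind 1 ribosomal RNA, the 18S. In yeast most of these proteins are made from a pair of genes, called A and B, left from a genome duplication, and the 2 copies differ little in the protein they encode. The genes are among the most strongly transcribed, under Rap1, Fhl1 and Ifh1, and many contain an intron. Several control their own output, as when a ribosomal protein in excess binds its own transcript. Nab2 binds the poly(A) tails of mRNAs in the nucleus and takes part in their export.

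NAB2 itself had log2 signals of 13.84, 13.60 and 13.70 on the nab2-1 arrays, against 12.43, 12.36 and 12.29 on the wild type arrays. Whether its probes cover the altered stretch of the allele is unknown, and the signal therefore checks no label. Most genes on 3 chromosomes (I, XI and XVI) had higher signals in nab2-1, with a median difference of 0.75 over 807 genes, against -0.11 over the 4642 genes elsewhere. The MATalpha-specific genes MF(ALPHA)1, MF(ALPHA)2, STE3 and SAG1 had mean signals between 12.74 and 14.13 in nab2-1 and between 12.26 and 13.91 in the wild type. The means of 6 MATa-specific genes lay between 8.45 and 10.05 in nab2-1 and between 7.24 and 9.08 in the wild type. All 10 lay above 4.27, the 95th percentile of the probe sets for another yeast species. W303-1A is known as a MATa strain and the labels give no mating type, so the bright MATalpha signals go against the strain name in both groups. The 6 MATa-specific genes were all higher in nab2-1, and the part of this difference in the results was not tested.

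Small-subunit ribosomal protein transcripts changed little in nab2-1. No gene of the 52 changed by 1.5-fold either way, while 27.5% of all genes tested did, and 17.7% of the 727 other genes that were at least as bright as the dimmest member. By chromosome, these were 56 of 137 genes on I, XI and XVI and 73 of 590 elsewhere, where 48 of the members lie. None of the other genes with means of 14 or more did, 13 on I, XI and XVI and 48 elsewhere, where 1 and 16 members lie. The 727 genes were thus not matched in brightness to the members. Differences, as log2 signal in nab2-1 minus wild type, ran from -0.36 to 0.30 with a median of -0.08, beside -0.05 for all genes tested. Of the members, 20 passed the test, beside 67.4% of all genes. Of these, 18 were lower (34.6% of members), against 37.2% of all genes, and 2 were higher (3.85%), against 30.2% of all genes. The share of members called lower was close to that of all genes in this fit, and the share called higher was below it. Calls are those of limma's test with Benjamini-Hochberg adjustment over all 5449 genes at 0.05. All 3 nab2-1 values lay below all 3 wild type values for 29 members and above them for 3, against 41.1% and 32.8% of all genes.

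The count of lower members depended on the arrays, their scaling and the variance model. With a trended and robust variance it was 26, and 2070 of all genes were lower, against 18 and 2028. It was 9 without nab2-1 replicate 2, without nab2-1 replicate 3, without wild type replicate 1 or without wild type replicate 3. In these fits 1838 to 1880 of all genes were lower, so the members' count fell by a larger share than that of all genes. Of the 18 genes, 8 were called lower whichever array was left out. Scaled to spiked control RNAs, which moved the median of all genes from -0.05 to 0.22, 0 members were lower and 4 higher. Of all genes, 622 were lower and 2133 higher. The spiked signals averaged 7.38, 7.22 and 7.59 on the wild type arrays, against 7.16, 7.14 and 7.06 on the nab2-1 arrays. Errors were wider under this scaling, as for RPS18A, with an SE of 0.15 against 0.05 as deposited. The members' median was 0.03 below that of all genes under both scalings, since the spiked scaling moves all genes of an array alike. It was 0.02 below with cyclic loess and 0.0005 above with quantile normalisation.

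**Figure D1:**
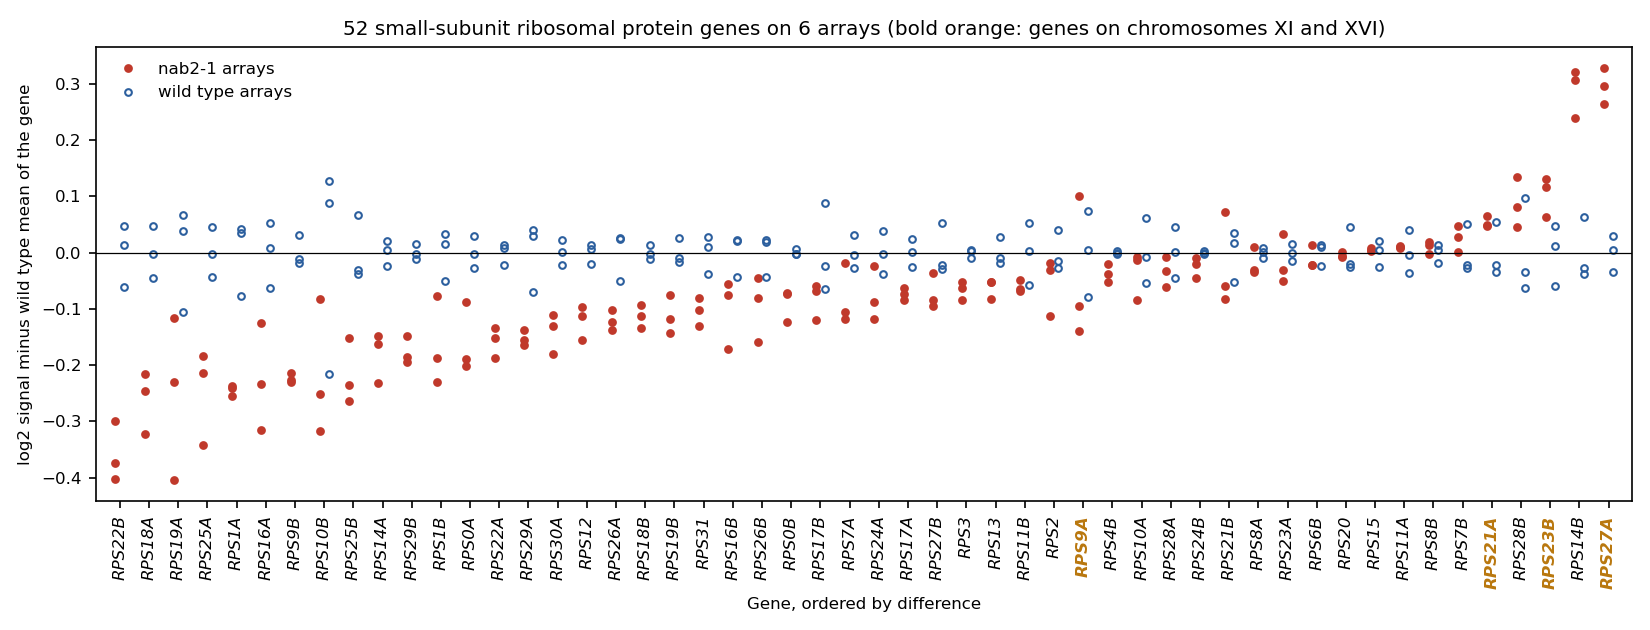
Log2 signal of each of the 52 genes on each array, less that gene's wild type mean. Filled red points are the 3 nab2-1 arrays and open blue points the 3 wild type arrays, and genes run by difference from RPS22B (-0.36) to RPS27A (0.30). The nab2-1 points lie wholly below the wild type points for 29 genes and wholly above for 3.

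The members are bright on these arrays, and 44 of the 52 were in the top 5% of all genes by mean signal. Their values ran from 11.87 to 14.42, while the highest value of any probe set was 14.79. On chromosomes other than I, XI and XVI, 5 members had means from 12 to 13, 27 from 13 to 14, and 16 at 14 or more. The differences of other genes there ran from -2.93 to 3.05 for the 389 with means from 12 to 13, from -1.66 to 1.35 for the 197 from 13 to 14, and from -0.29 to 0.17 for the 48 at 14 or more. The range was thus narrow for the brightest genes, and the part of brightness in the members' small differences was not tested. NAB2, with means of 13.71 ± 0.12 in nab2-1 against 12.36 ± 0.07 in wild type arrays (SD, n = 3 each), had a difference of 1.35 within the members' range of signals. NAB2 is the gene carried on the plasmid in nab2-1, and it is itself the upper end of the range from 13 to 14.

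RPS22B fell most among the members. It encodes Rps22, a protein of the body and platform, and its intron is known to hold a stem-loop cut by the RNase III enzyme Rnt1. RPS22B had log2 signals of 12.65, 12.54 and 12.57 on the nab2-1 arrays, against 12.96, 12.88 and 12.99 on the wild type arrays. The groups were well apart, and the difference of -0.36 ± 0.05 (SE, 1.28-fold lower in nab2-1) had an adjusted p of 0.000659. Next was RPS18A, for a head protein at the contact with the large subunit, with signals of 13.69, 13.76 and 13.79 in nab2-1 against 14.06, 13.97 and 14.01 in the wild type. It fell by 0.26 ± 0.05 (adjusted p = 0.00285).

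The other large falls were of similar size. RPS25A and RPS25B, whose protein Rps25 lies in the head and is known for its part in internal initiation, fell by 0.25 ± 0.06 and 0.22 ± 0.05, with adjusted p-values of 0.00693 and 0.00929. Both copies therefore passed, with arrays that did not overlap between the groups. RPS1A, for a platform protein, had 13.03, 13.01 and 13.02 in nab2-1 against 13.31, 13.19 and 13.30 in the wild type, and fell by 0.24 ± 0.05 (adjusted p = 0.0036). RPS9B, one of a pair for a protein at the mRNA entry channel, had 13.71, 13.70 and 13.70 in nab2-1 against 13.92, 13.91 and 13.96 in the wild type, and fell by 0.22 ± 0.04 (adjusted p = 0.00251). RPS29B, for a small zinc-binding head protein, fell by 0.18 ± 0.04 (adjusted p = 0.00793). On signals not set against their chromosome, these 5 genes, RPS22B and RPS18A were lower under every alternative measured except the scaling to spiked controls. Relative to the median signal of the chromosome, RPS22B alone of these was called lower. When each gene's own mean was removed before that median was taken, RPS22B, RPS18A and RPS1A were.

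RPS19A, RPS16A and RPS14A also passed, at -0.25 ± 0.08, -0.22 ± 0.06 and -0.18 ± 0.05 (adjusted p = 0.0326, 0.0152 and 0.0103). RPS19A, whose protein acts in maturation of the subunit, was spread more widely, with 12.76, 12.47 and 12.65 in nab2-1 against 12.94, 12.77 and 12.91 in the wild type. Its calls, like those of RPS16A, were lost when some single arrays were left out. The remaining 8 genes called lower lay between -0.16 and -0.11.

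RPS27A and RPS14B were the 2 genes that rose. RPS27A, on chromosome XI, encodes a zinc-finger protein of the platform and had 13.89, 13.86 and 13.93 on the nab2-1 arrays, against 13.60, 13.56 and 13.63 on the wild type arrays. The rise was 0.30 ± 0.05, or 1.23-fold (adjusted p = 0.000834). RPS14B, on chromosome X, encodes the platform protein Rps14, which is known to bind the RPS14B pre-mRNA and hold its output down. Its signals were 12.67, 12.65 and 12.59 in nab2-1 against 12.32, 12.31 and 12.41 in the wild type. It rose by 0.29 ± 0.05, or 1.22-fold (adjusted p = 0.00167). Its neighbour on the chromosome is RPS22A, which moved the other way, by -0.16 ± 0.04 (adjusted p = 0.0144).

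The 7 members without a partner gene had differences between -0.12 and 0.01, with a median of -0.06. RPS12, for a protein of the head's beak, was the 1 gene of these that passed, at -0.12 ± 0.04 (adjusted p = 0.0417). RPS31, made as a fusion with ubiquitin, had 14.17, 14.15 and 14.12 in nab2-1 against 14.28, 14.22 and 14.26 in the wild type, a difference of -0.10 ± 0.04 (adjusted p = 0.0733). RPS3 and RPS2, for proteins of the mRNA entry channel, differed by -0.07 ± 0.04 and -0.05 ± 0.05, and RPS13 by -0.06 ± 0.04. RPS20 and RPS15, both for head proteins, were at -0.00428 and 0.00553, with 95% intervals of -0.11 to 0.10 and of -0.09 to 0.11. The changes of the 20 genes that passed all lie outside both intervals, which is no test of a difference from RPS20 or RPS15. RPS18B, at -0.11, had itself a 95% interval of -0.21 to -0.01, which overlaps both.

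By place in the subunit, 9 of 21 head genes and 9 of 31 body and platform genes were lower, with medians of -0.11 and -0.06, beside the 37.2% of all genes called lower. All 4 members on chromosomes XI and XVI are body and platform genes, so place and chromosome are mixed in this contrast. The head genes lie on the other chromosomes, where 43.2% of all genes were called lower, beside 42.9% of head genes. Relative to the median signal of their chromosome, the medians were 0.04 for head genes and 0.05 for body and platform genes. Both genes that rose belong to the platform, and RPS27A lies on XI. ASC1, for the scaffold protein bound to the head, was no member and had a difference of -0.04 ± 0.04 (adjusted p = 0.409).

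To determine how the genes of the raised chromosomes behaved, the 4 members on XI and XVI were set against the other 48; none lies on chromosome I. The 4 genes had a median difference of 0.08, the other members one of -0.09. Of the 4, 1 was higher and 0 lower, where 92.6% of all genes on I, XI and XVI were called, 89.6% higher and 2.97% lower. Of the 48, 1 was higher and 18 lower, where 63% of all genes on the other chromosomes were called, 19.8% higher and 43.2% lower. Per array, the mean of the 4 less the mean of the 48 was -0.03, -0.04 and -0.06 in nab2-1, against -0.26, -0.26 and -0.21 in the wild type. The groups did not overlap, and this mean difference was 0.20 higher in nab2-1 on the log2 scale. Chromosomes I, XI and XVI were chosen on these same data, so the contrast is a description, with no test. For all genes, the medians on the same sets of chromosomes were 0.75 and -0.11, beside the members' medians of 0.08 and -0.09.

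Besides RPS27A, the 3 others did not pass the test. RPS23B, on XVI, for a protein at the decoding centre, had 13.97, 13.98 and 13.91 in nab2-1 against 13.86, 13.79 and 13.90 in the wild type, a difference of 0.10 ± 0.05 (adjusted p = 0.101). RPS21A, on XI, for a platform protein, had 14.42, 14.40 and 14.40 in nab2-1 against 14.33, 14.32 and 14.41 in the wild type, a difference of 0.05 ± 0.05 (adjusted p = 0.327). RPS9A, on XVI, whose splicing is known to be under control of its own protein, had 12.41, 12.21 and 12.16 in nab2-1 against 12.31, 12.23 and 12.38 in the wild type. Its groups overlapped, and the difference was -0.04 ± 0.08 (adjusted p = 0.62), with a 95% interval of -0.22 to 0.13.

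On chromosomes I, XI and XVI the shift of other genes shrank with brightness. The median difference of genes outside this set was 0.67 for 98 genes with means from 12 to 13, 0.35 for 35 genes from 13 to 14, and 0.09 for 13 genes at 14 or more. RPS21A, RPS23B and RPS27A lay inside the range of genes within 0.25 of their own mean signal on these chromosomes, whose medians were 0.07 (10 genes), 0.21 (14 genes) and 0.31 (16 genes). RPS9A was the dimmest of the 4, and 1 of 49 genes within 0.25 of its signal had a lower difference than it, where the median was 0.71. These placings are a description, with no test, and the part of brightness in them was not tested.

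**Figure D2:**
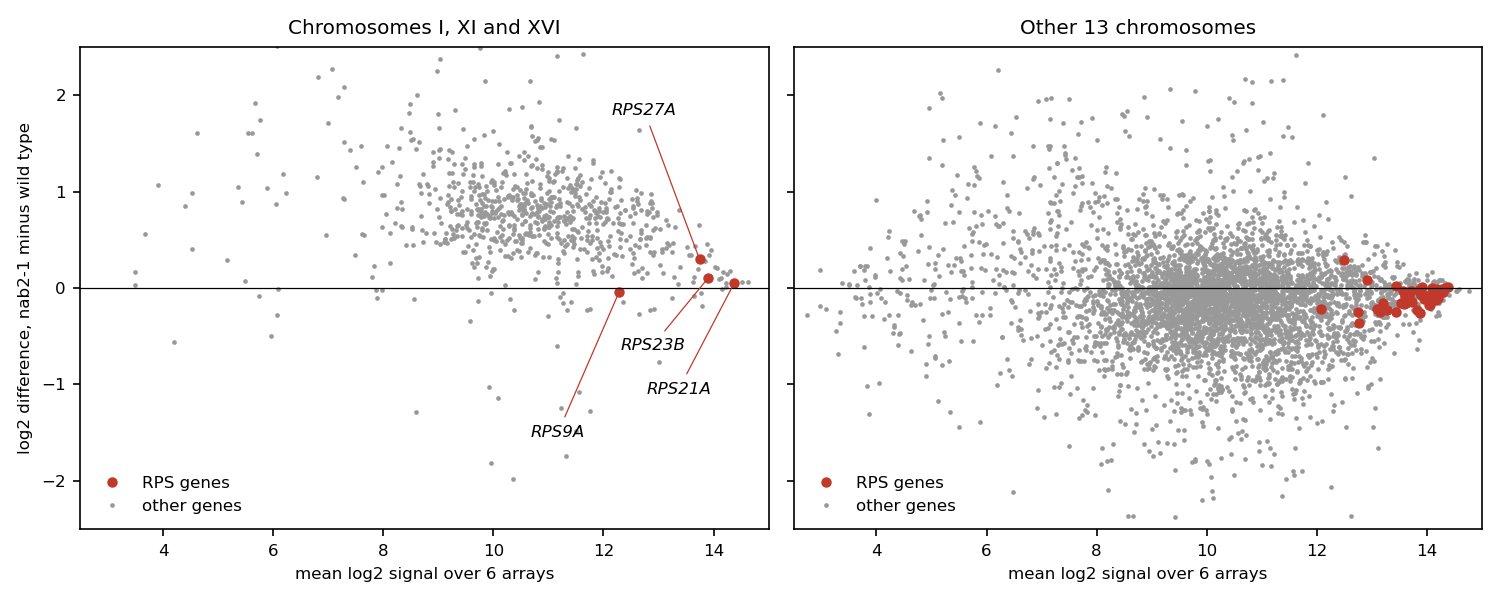
Difference between nab2-1 and wild type (log2, y axis) against mean log2 signal over the 6 arrays (x axis) for genes on I, XI and XVI (left) and of the other 13 chromosomes (right), with RPS genes in red and other genes in grey. RPS9A lies at -0.04, at the lower edge of the genes of like signal (-0.15 to 1.22), and RPS21A, RPS23B and RPS27A lie where the cloud narrows; 24 genes fall outside the plotted range.

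Each value was also taken relative to the median signal of its chromosome on the same array. These medians shifted by 0.78 on XI and 0.88 on XVI, and by -0.22 to -0.05 on chromosomes other than I, XI and XVI. The step thus lowers genes of XI and XVI and raises those outside I, XI and XVI. All 4 members on XI and XVI were then lower, at -0.93 for RPS9A, -0.78 for RPS23B, -0.73 for RPS21A and -0.48 for RPS27A (adjusted p = 5.76e-05, 4.08e-05, 2.09e-05 and 0.000157). Of 137 other genes on I, XI and XVI at least as bright as the dimmest member, 87 were also called lower on this scale, with a median of -0.34. In all, 5 members were lower and 8 higher, against 30.6% and 31.4% of all genes, or 62% either way. RPS22B stayed lower (-0.21 ± 0.06, adjusted p = 0.0124) and RPS14B was the highest (0.50 ± 0.06, adjusted p = 0.000138). The 8 included RPS28B at 0.23, RPS21B at 0.19, RPS23A at 0.18, RPS7B at 0.18, RPS20 at 0.17, RPS11A at 0.15 and RPS4B at 0.14. Of the 8, RPS14B alone was called as deposited, and RPS21B, RPS23A, RPS20 and RPS4B had slightly negative differences there. When each gene's own mean was removed before the chromosome median was taken, an alternative chosen after seeing the data, 4 members were higher and 7 lower, against 30.1% and 31.5% of all genes (61.6% either way), and of those 8 RPS14B, RPS28B and RPS7B were still called.

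A and B genes were compared within arrays, since a ratio of the 2 copies on 1 array shows unequal change without setting the level of a probe set against that of another. For the 21 pairs with both copies measured, the A genes had a median difference of -0.08 and the B genes one of -0.09. The mean of A less the mean of B averaged 0.01 ± 0.01 over the nab2-1 arrays and 0.02 ± 0.01 over the wild type arrays (SD, n = 3 each). The copy with the more positive difference was A in 8 pairs and B in 13. In 5 pairs both copies were called lower, and in 6 pairs only 1 copy was. These counts rest on the brightest probe set of each gene. RPS19B and RPS24A, not called, were lower on their other probe sets (-0.21 ± 0.06 and -0.16 ± 0.05, limma adjusted p = 0.0134 and 0.0327). RPS18B, called lower, was not called on its other probe set (-0.06 ± 0.05, adjusted p = 0.331). That an effect passed in 1 copy does not show unequal change, which was tested on the ratio.

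The ratio of A to B changed past the threshold in 5 of the 21 pairs, against 36.8% of the 57 A and B pairs on the array. It was higher in nab2-1 for 2 of the 5 and lower for 3 (17.5% and 19.3% of all pairs). The 57 include the 21 themselves, 27 pairs of large-subunit ribosomal protein genes, 5 pairs with systematic names and 4 others. They are thus mostly ribosomal protein genes and no independent background. The largest change was in RPS14A/RPS14B, whose log2 ratio was 1.23, 1.33 and 1.38 on the nab2-1 arrays, against 1.81, 1.80 and 1.74 on the wild type arrays. RPS14A fell by 0.18 while RPS14B was higher by 0.29, and the ratio differed by -0.47 ± 0.05 (limma adjusted p = 0.000237). For RPS27A/RPS27B the ratio was -0.0002, 0.03 and 0.08 in nab2-1 against -0.38, -0.35 and -0.27 in the wild type, a difference of 0.37 ± 0.04 (adjusted p = 0.000392). RPS27B, on chromosome VIII, had itself a difference of -0.07 ± 0.05 that did not pass. For RPS22A/RPS22B the ratio was 0.48, 0.60 and 0.52 in nab2-1 against 0.33, 0.37 and 0.29 in the wild type, a difference of 0.20 ± 0.04 (adjusted p = 0.00889), with both copies lower.

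The other pairs called were RPS18A/RPS18B at -0.15 ± 0.05 (adjusted p = 0.0411) and RPS7A/RPS7B at -0.11 ± 0.03 (adjusted p = 0.0414). Each of these calls was kept in 1 of the 6 fits with an array left out, while those of RPS14, RPS27 and RPS22 were kept in all 6. The RPS18B value comes from a probe set declared to match more than 1 transcript, and its other probe set gave -0.06 ± 0.05. With 3 arrays against 3, the exact two-sided permutation test of a single pair cannot go below p = 0.1, and all 5 pairs reached that value.

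Of the pairs that did not pass, RPS16A/RPS16B was nearest to the threshold, at -0.12 ± 0.04 (adjusted p = 0.0501), with ratios that did not overlap between the groups. Unequal change was also close to it for RPS9A/RPS9B, where the gene on XVI is A, at 0.18 ± 0.06 (adjusted p = 0.0571), with a 95% interval of 0.03 to 0.33. RPS23A/RPS23B, where B lies on XVI, was at -0.12 ± 0.04 (adjusted p = 0.0568), and RPS21A/RPS21B, where A lies on XI, was at 0.08 ± 0.04 (adjusted p = 0.21). In all 4 split pairs the copy on XI or XVI thus had the more positive difference, and 1 of the 4 passed. RPS28A/RPS28B, of which RPS28B is known to control its own mRNA decay through Edc3, was at -0.12 ± 0.04 (adjusted p = 0.0571).

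The smallest unequal changes were in RPS17A/RPS17B, RPS29A/RPS29B and RPS26A/RPS26B, at 0.00831, 0.02 and -0.03. Their 95% intervals ran from -0.09 to 0.11, from -0.08 to 0.12 and from -0.11 to 0.06. A difference between copies as large as that of RPS22 lies outside them. RPS29A and RPS26A were each read from a probe set declared to match more than 1 transcript. The other probe set of RPS29A gave -0.09 ± 0.07 (adjusted p = 0.254). That of RPS26A gave -0.07 ± 0.05 (adjusted p = 0.267). Both had arrays that overlapped between the groups. RPS25A and RPS25B were both lower, with a ratio difference of -0.03 ± 0.04 (adjusted p = 0.575). Of the 52 probe sets, 12 are declared to match more than 1 transcript, and near-identical copies share probes. With the probe sets declared to match more than 1 transcript left out, A over B was up in 3 of the 21 pairs and down in 7. In the main fit these counts were 2 and 3. The share of all pairs called without those probe sets is not given here, so the rise is not read as particular to these pairs. Signal from 1 copy on the other's probes would bring the 2 differences together, and its part in these values was not tested.

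**Figure D3:**
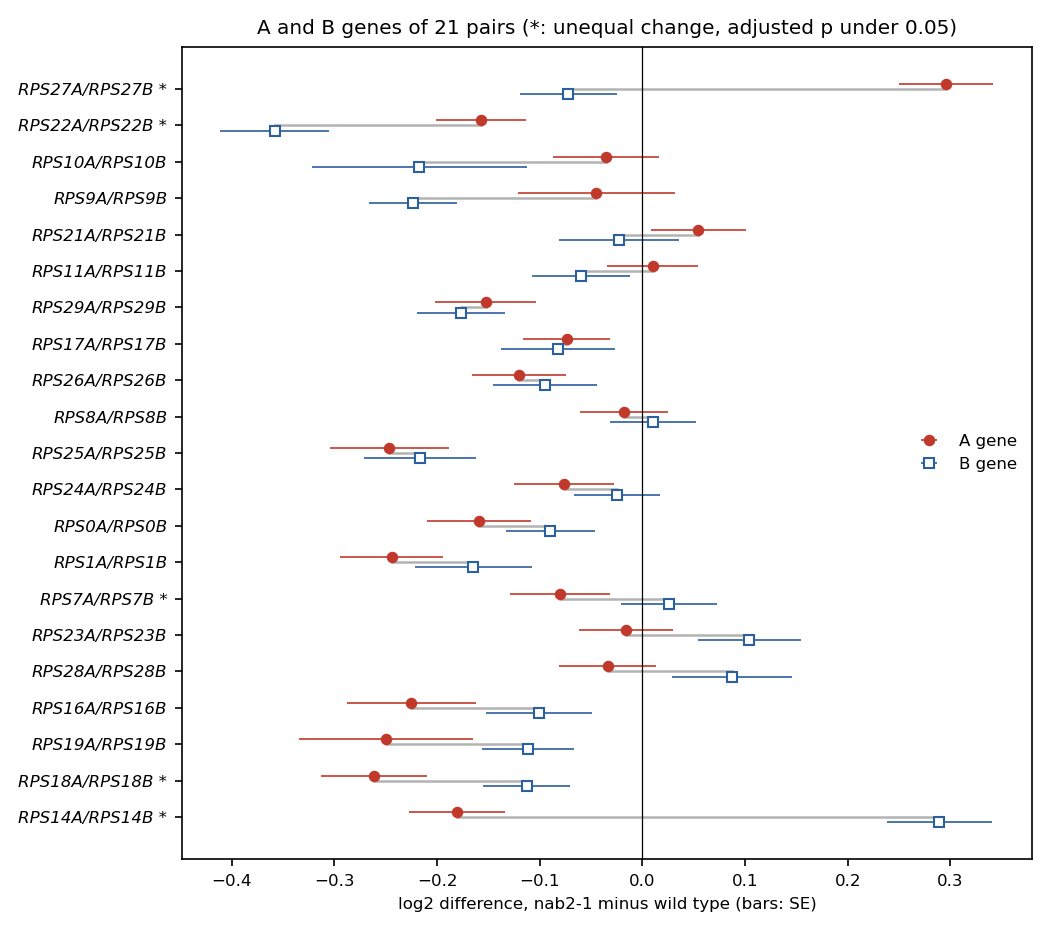
Difference between nab2-1 and wild type (log2, x axis) for the A gene (red circle) and B gene (blue open square) of each of the 21 pairs (y axis), with bars of 1 SE from limma and n = 3 arrays per group. Pairs run from the most positive A minus B difference (RPS27A/RPS27B, 0.37) to the most negative (RPS14A/RPS14B, -0.47), and stars mark the 5 pairs past the threshold.

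Relative to the chromosome medians, the ratio changed in 9 of the 21 pairs, 2 with A over B up and 7 down, against 43.9% of all 57 pairs (17.5% up and 26.3% down). With gene-centred medians the counts were also 2 and 7, against 47.4% of all pairs (17.5% up and 29.8% down). RPS14A/RPS14B (-0.55 ± 0.04) and RPS22A/RPS22B (0.27 ± 0.05) kept their direction (adjusted p = 2.66e-05 and 0.00184). All 4 pairs split between a raised chromosome and another were among the 9, with the copy on XI or XVI the lower one. The subtraction fixed this direction in advance. The median levels of XI and XVI were 0.78 and 0.88 higher in nab2-1, while the ratios of these pairs differed by at most 0.37 as deposited. For RPS27A/RPS27B the sign thus turned, at -0.59 ± 0.05.

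Genes for carriers, modifiers and partners of the small-subunit proteins moved in both directions. Of 21 measured genes on that list 8 rose and 2 fell, against 30.2% and 37.2% of all genes, with a median of 0.03. The 4 largest rises were on XI and XVI. DIM1, for the methylase of the 18S rRNA, rose by 1.25 ± 0.07, LTV1, for an export and assembly factor, by 0.92 ± 0.06, YAR1, for the carrier of Rps3, by 0.92 ± 0.05 and NAT3, for an N-terminal acetylase subunit, by 0.62 ± 0.10. These differences passed with adjusted p-values of 7.73e-06, 8.82e-06, 7.02e-06 and 0.00124. Relative to their chromosomes DIM1 was at 0.37, LTV1 at 0.14, YAR1 at 0.04 and NAT3 at -0.26, and 1 of the 4, DIM1, was called. With gene-centred chromosome medians 3 of the 4 were called higher, DIM1 at 0.50, LTV1 at 0.17 and YAR1 at 0.17. Over the whole list, 10 genes were higher and 0 lower relative to their chromosomes under both ways of taking the median, beside 31.4% and 30.6% of all genes for the first.

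On the other chromosomes 4 of 17 genes rose (23.5%), near the 19.8% of all genes there. They were BRE5 (0.59 ± 0.08), TSR2 (0.45 ± 0.07), TSR4 (0.36 ± 0.07) and NOB1 (0.27 ± 0.07), named here after their values were seen. TSR2 encodes the carrier of Rps26 and had mean signals of 11.56 in nab2-1 and 11.11 in the wild type. TSR4 is the carrier of Rps2 and NOB1 the nuclease that makes the 3' end of 18S rRNA. RPS26A and RPS26B were at -0.12 and -0.09 and RPS2 at -0.05. No relation between the carriers' genes and those of the proteins they carry was tested.

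Of 28 regulators of ribosomal protein genes, 3 rose and 8 fell, against the same 30.2% and 37.2%, with a median of -0.04. ABF1, for a general regulatory factor, lies on XI and fell by 1.14 ± 0.04, to a mean of 9.52 in nab2-1 against 10.66 in the wild type (adjusted p = 1.57e-06). TOR2, for a kinase of the growth-control complexes, and FHL1, for a factor at ribosomal protein promoters, lie on XI and XVI and rose by 0.66 ± 0.06 and 0.52 ± 0.05 (adjusted p = 3.57e-05 and 9.62e-05). Relative to those chromosomes FHL1 was lower, at -0.36, and TOR2 was at -0.12, not past the threshold. DOT6, for a repressor of ribosome biogenesis genes, fell by 0.44 ± 0.14 (adjusted p = 0.0236). Scaled to the spiked controls, 9 regulators were higher and 1 lower. Relative to their chromosomes, 8 were higher and 6 lower, against 31.4% and 30.6% of all genes. The larger number of falls was seen on the deposited scale and on neither of these.

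**Figure D4:**
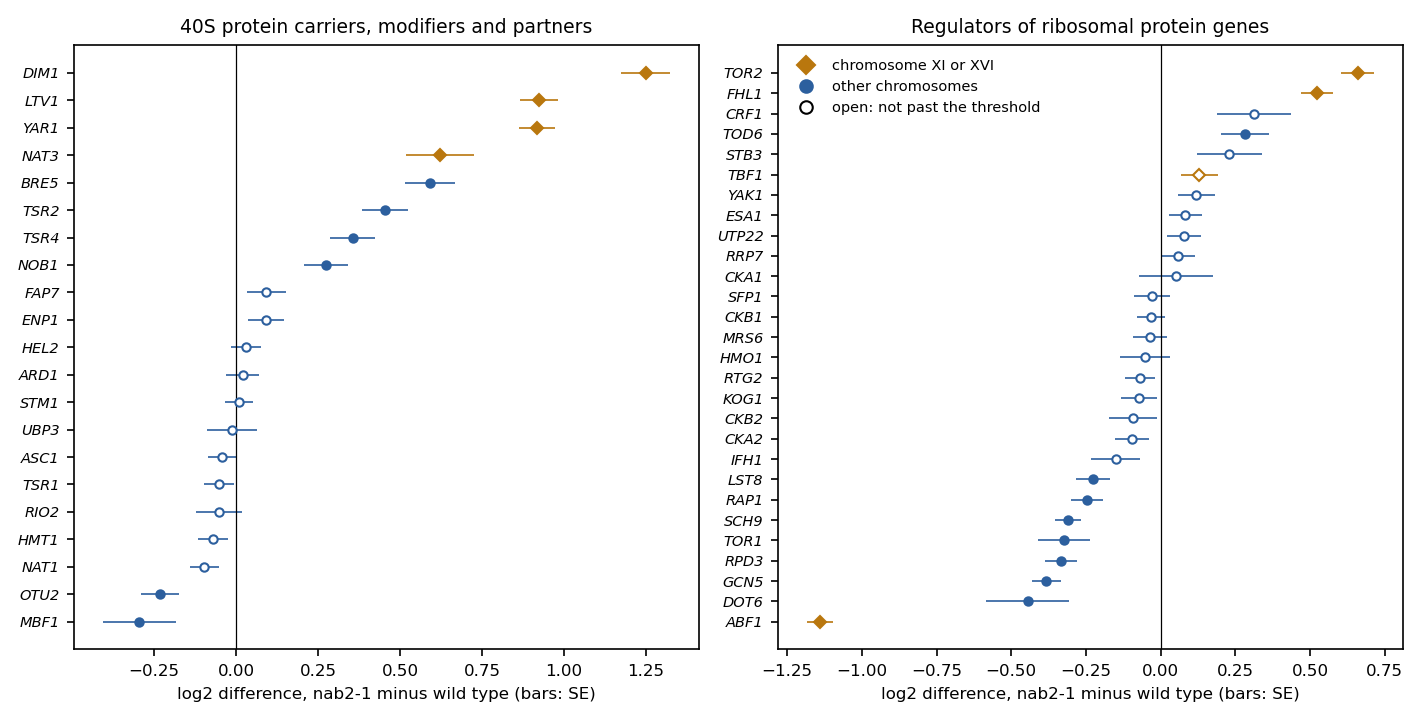
Difference between nab2-1 and wild type (log2, x axis; bars of 1 SE, n = 3 arrays per group) for 21 carriers, modifiers and partners of small-subunit proteins (left) and 28 regulators of ribosomal protein genes (right). Orange diamonds are genes on XI and XVI, blue circles genes elsewhere, and open symbols did not pass the threshold; values run from -0.29 to 1.25 on the left and from -1.14 to 0.66 on the right.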

How the data were processed

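Per the submitters' processing notes, the arrays were read with GCOS and summarised with RMA, and limma was used. The deposited values are the authors' log2 signals, 1 per probe set and array, and were used with no further scaling. Of 10928 probe sets, 5498 had 1 yeast gene in the platform annotation, and the brightest per gene gave 5449 genes. Differences, nab2-1 minus wild type, were tested with limma 3.58.1 (lmFit, eBayes) in R 4.3.3 on 3 arrays per group, with Benjamini-Hochberg adjustment over all genes at 0.05. The fit was repeated on values less the median signal of the gene's chromosome on that array, and on the A to B ratio of all 57 pairs with both genes measured. The number of arrays limits the precision. On simulated data the gene test recovered 74.5% of 200 changed genes among 5449, with 8 false calls, and the pair test recovered all 10 of 57.

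The members, chromosomes I, XI and XVI and the gene lists were chosen with earlier results of these data known. Named genes were NAB2, ASC1, members on XI and XVI, members without a partner, the 10 largest rises and falls past either test, the pairs called, the 3 least unequal pairs, and up to 4 genes of each list with the largest changes; others named were chosen after their values were seen. Same-numbered arrays did not deviate together, so the replicate numbers were not taken as pairs. Alternatives covered normalisation, scaling, variance, probe set choice, dim genes, the threshold and each array left out.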

Additional observations from a re-analysis of the deposited data

Results flagged for a closer look

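The 8 control probe sets for 18S rRNA, the RNA that the small-subunit proteins bind, belong to no comparison of the report and were all higher in nab2-1. The log2 differences were 1.00, 3.55, 2.24, 2.38, 2.72, 2.35, 1.34 and 2.91, with limma adjusted p-values between 0.000739 and 0.00725. Their signals lay between 12.5 and 13.9 on the nab2-1 arrays and between 8.64 and 13.2 on the wild type arrays, and the groups overlapped in none of the 8. The spread was wider in the wild type, with an SD per probe set of up to 0.226 in nab2-1 and up to 1.25 in the wild type. Of 8 probe sets for 25S rRNA, 5 were higher, and the 5.8S probe set differed by 0.32 (adjusted p = 0.182).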

How the results depend on the processing

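Of the RPS genes, 18 lower became 7 at an adjusted p under 0.01, 10 with cyclic loess, 9 with quantile normalisation and 0 when scaled to the 36 spiked-control probe sets, and 9 to 18 with an array left out; 2 higher became 4 with the spiked scaling. Their median of -0.08 became -0.0400 with cyclic loess, -0.0382 with quantile normalisation and 0.20 with the spiked scaling, and ran from -0.100 to -0.0663 with an array left out. Relative to chromosome, 8 higher became 1 at the stricter threshold, 16 with trended and robust variance, 15 without the dimmest 25% of genes, 4 with gene-centred chromosome medians (chosen after seeing the data) and 2 to 5 with an array left out, and 5 lower became 8 without the dimmest genes. Pairs with A over B down, 3, became 1 at the stricter threshold, 7 on unique probe sets, 6 without the dimmest genes and 1 to 3 with an array left out. Carriers and partners called lower, 2, became 1 at the stricter threshold, with cyclic loess, quantile normalisation or the replicate block, 0 with the spiked scaling, and 1 to 2 with an array left out. The spiked scaling gave 9 regulators higher and 1 lower, and 622 of all genes lower, against 3, 8 and 2028. Of all genes, 1613 were lower at the stricter threshold, 1879 with cyclic loess and 1977 with quantile normalisation. With an array left out, 1838 to 2012 were. The causes were not tested.

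The spiked scaling also reversed single genes, to 0.12 for RPS0A, 0.15 for RPS12, 0.0940 for RPS14A, 0.0496 for RPS16A, 0.0133 for RPS18A, 0.16 for RPS18B, 0.0246 for RPS19A, 0.0303 for RPS1A, 0.11 for RPS1B, 0.12 for RPS22A, 0.0280 for RPS25A, 0.0576 for RPS25B, 0.15 for RPS26A, 0.12 for RPS29A, 0.0979 for RPS29B, 0.13 for RPS30A, 0.0510 for RPS9B, 0.0475 for LST8, 0.0443 for OTU2 and 0.0274 for RAP1, none of them past the threshold. Each of these genes had an SE of 0.15 under the spiked scaling, larger than its reversed value or close to it. The RPS28A/RPS28B ratio relative to chromosomes turned to 0.0440 without the dimmest genes. With the replicate number as a block, 2 RPS genes were higher and 12 lower; deviations of same-numbered arrays correlated at -0.19, 0.19 and -0.14.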
